A study of Homo sapiens with 16 samples.

Results

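The genes described here encode the translation initiation and elongation factors of the cytosol. They were chosen by symbol: every protein-coding gene named EIF1 to EIF6 with any suffix, including the eIF2alpha kinases (EIF2AK) and the eIF4E-binding proteins (EIF4EBP), together with EEF1A1, EEF1A2, EEF1B2, EEF1D, EEF1G, EEF2, its kinase EEF2K and the recycling factor ABCE1, with pseudogenes left out. This rule found 64 of the 60719 gene identifiers in the count tables. All RNA came from MDA-MB-231, an established human triple-negative breast cancer cell line, either parental 231 (wild type) or 231:TKO, in which TXNIP was knocked out with CRISPR/Cas9. The 231:TKO cells were grown from clones of single cells, so that a difference between 231:TKO and parental 231 is also a difference between a clone and its parental population. Untreated parental 231 and 231:TKO had 2 libraries each, and parental 231+siNT, parental 231+siMyc, 231:TKO+siNT and 231:TKO+siMyc, which received a non-targeting siRNA (siNT) or an siRNA against Myc for 48 hours, had 3 each. All groups were grown in the same medium. The labels give replicate numbers but not whether replicates were separate cultures, and p-values then measure only the spread between these libraries.

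The 16 libraries held between 18953668 and 59799444 counts. In CPM, each gene's counts relative to its library's total as scaled with edgeR's TMM method, TXNIP lay at 276 and 277 in untreated parental 231 and at 12.7 and 46.5 in 231:TKO, and at 296 to 315 in parental 231+siNT and 6.70 to 8.06 in 231:TKO+siNT. Its log2 difference was -3.29 ± 0.65 (adjusted p = 0.0587) in the untreated cells and -5.42 after siNT (adjusted p = 2.7e-10). MYC lay at 124 to 147 in 231:TKO+siNT and 57.9 to 58.8 in 231:TKO+siMyc, and at 123 to 129 in parental 231+siNT and 64.8 to 67.3 in parental 231+siMyc. The 5 markers that this mesenchymal-like line is known to express (VIM, CD44, MSN, LGALS1 and S100A4) lay between 219 and 3105 CPM, and the estrogen and progesterone receptor genes ESR1 and PGR stayed under 1 CPM in every library. ERBB2, GATA3, EPCAM and CDH1, listed as low or absent in the line, were detected, with ERBB2 at 74.3 to 107 CPM. Libraries stood apart within 2 groups. The deviations of parental 231+siNT replicate 1 and parental 231+siMyc replicate 3 from the means of their groups correlated across genes (r = 0.94 over 10957 genes), and these 2 libraries are called the pair below. The 231:TKO replicates differed from each other more than counting allows, with a chi-square of 38.8 per degree of freedom against 2.02 for the parental 231 replicates. Counting used single reads for untreated libraries and read pairs for siRNA-treated ones, and the siRNA-treated parental 231 libraries were counted with a later gene annotation than all others. Levels set side by side across these sets carry those differences. Every comparison of 231:TKO+siNT with parental 231+siNT, both counted as read pairs, carries the difference in annotation.

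Translation of an mRNA begins when eIF2 brings the initiator methionyl-tRNA to the small ribosomal subunit, eIF3 and the scanning factors eIF1, eIF1A and eIF5 assemble there, and eIF4F (the cap-binding protein eIF4E, the scaffold eIF4G and the helicase eIF4A) recruits the complex to the capped end of the mRNA. The guanine nucleotide exchange factor eIF2B recharges eIF2, and 4 kinases stop this step under stress by phosphorylating the alpha subunit of eIF2. The eIF4E-binding proteins hold eIF4E back until mTORC1 phosphorylates them. After subunit joining by eIF5B, eEF1A delivers aminoacyl-tRNAs, eEF1B (EEF1B2, EEF1D and EEF1G) recharges eEF1A, eEF2 moves the ribosome along, eIF5A helps it past difficult peptide bonds, and ABCE1 splits the ribosome after termination. Several of these genes are known targets of the transcription factor Myc, which binds E-boxes of the letters CACGTG, and many of the elongation factor mRNAs begin with a terminal oligopyrimidine (TOP) tract through which mTORC1 controls their translation.

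Promoter sequences, 250 bases before to 50 after an annotated start, were available from RefSeq (GRCh38.p14) for 53 of the 64 members, in 70 entries. CACGTG, which reads the same on both strands, was present in 13 of the 70 entries (18.6%) and in 2548 of all 35116 entries (7.26%). The variant CACGCG, searched on both strands, was present in 11 member entries (15.7%) and in 11.4% of all entries. A start on C followed by at least 4 pyrimidines, the beginning of a TOP tract, was found in 13 member entries (18.6%) and in 4.07% of all. Among members with an entry, the pyrimidine start was present in 11 of the 32 that were lower after siMyc in 231:TKO and in 2 of the other 21, and CACGTG in 7 of 32 and 6 of 21. The members with CACGTG were EIF2B3, EIF2AK2, EIF1B, EIF5A2, EIF4G1, EIF4E, EIF4EBP3, EIF4H, EIF3F, EIF4B, EEF2K, EIF4A3 and EIF3K. These letters describe the windows and do not show binding. The sites of the eIF4F subunits EIF4E and EIF4G1 and their helicase partner EIF4B are printed as examples, with the motif in capitals. These genes were lower after siMyc in 231:TKO, EIF4B by a log2 change of only -0.13 ± 0.05. By the counts above, CACGTG was not more frequent in the lower members than in the others. EIF4E and EIF4G1 each held a second CACGTG, beginning 225 and 144 bases before the start, and the site nearest the start is shown.
EIF4E, chr4:98929173-98929232, minus strand, motif beginning 72 bases before the start: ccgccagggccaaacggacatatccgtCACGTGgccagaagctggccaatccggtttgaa
EIF4G1, chr3:184314512-184314571, plus strand, 67 bases before the start: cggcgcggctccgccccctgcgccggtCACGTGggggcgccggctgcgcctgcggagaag
EIF4B, chr12:53006407-53006455, plus strand, 22 bases before the start: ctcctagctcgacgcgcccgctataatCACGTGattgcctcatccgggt
ABCE1, the member with the largest fall after siMyc, held no CACGTG in its window but the variant, shown here as the complementary CGCGTG at chr4:145098266-145098310, plus strand, beginning 18 bases before the start: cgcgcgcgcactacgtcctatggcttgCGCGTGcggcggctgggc
The starts of the elongation factor genes are printed to show the pyrimidine tracts, in capitals from the first base of the transcript.
EEF1A1, chr6:73521023-73521042, minus strand: cgtgaacgttCTTTTTCgca
EEF1B2, chr2:206159885-206159910, plus strand: ctcttcgggtCCTTTTTCCTCTCTTC
EEF2, chr19:3985454-3985473, minus strand: cgtcagcgttCTCTTCCgcc

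The members spanned more than 3 orders of magnitude in level. On the TPM scale (counts divided by gene length and scaled to the same total in each library), the highest members in 231:TKO+siNT were EEF1A1 at 4400, EEF2 at 1301, EIF5A at 991, EIF6 (which keeps the large subunit from joining too early) at 716 and EEF1B2 at 574 TPM. In parental 231+siNT the same 5 genes led, with EEF1A1 at 4116, EIF5A at 1093, EEF2 at 1009, EIF6 at 1003 and EEF1B2 at 675 TPM. Their order below EEF1A1 was not the same in both groups, and EEF2 and EIF6 in parental 231+siNT lay closer to each other than the spread between libraries. The eIF3 subunits other than EIF3C and its copy EIF3CL lay between 38.1 (EIF3F) and 298 (EIF3A) TPM in 231:TKO+siNT, and the 5 eIF2B subunits between 28.4 and 56.1, below the eIF2 subunits EIF2S1 (101), EIF2S3 (200) and EIF2S2 (355). The order within eIF3 depends on the length of the gene models, with 15136 exonic bases for EIF3F, 37761 for EIF3E and 3127 for EIF3J. In CPM, EIF3F (152) and EIF3E (494) lay above EIF3J (64.6) in 231:TKO+siNT. Among cap-binding proteins EIF4E2 lay at 42.6 and EIF4E3 at 4.19 TPM. EIF4E itself cannot be placed across populations on this scale, because its gene model is 14067 bases long in the earlier annotation and 4971 in the later one (22.0 TPM in 231:TKO+siNT and 55.6 in parental 231+siNT, against 81.6 and 77.4 CPM), and the same holds for EIF2AK3.

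**Figure D1:**
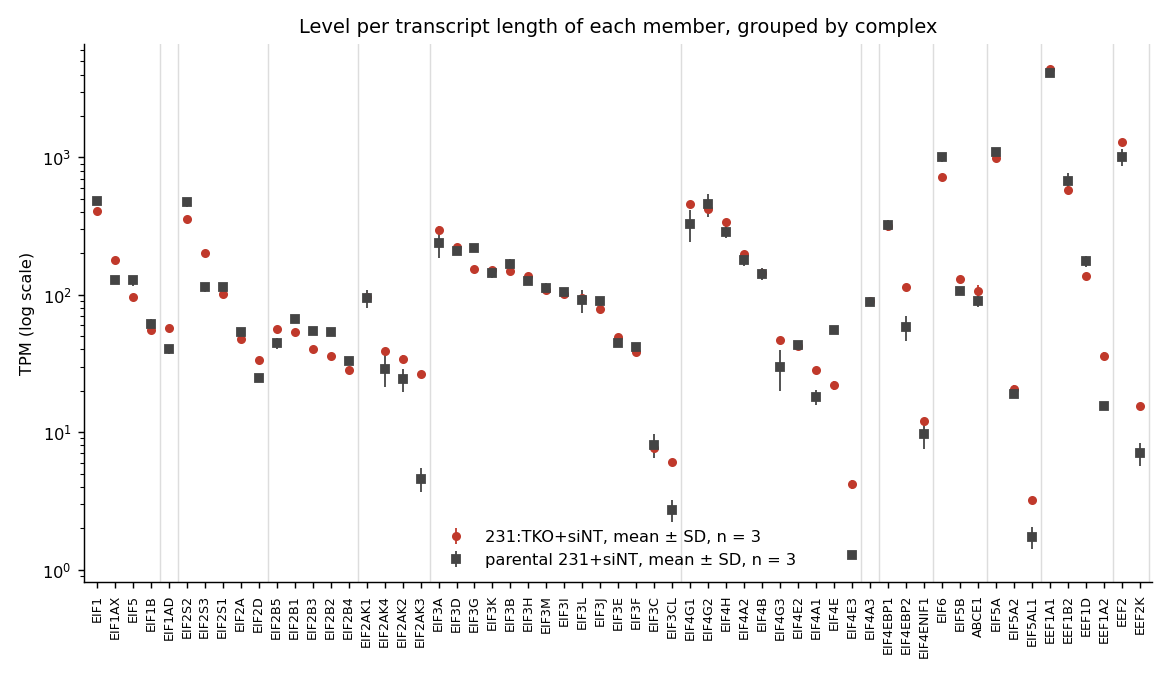
Level of 59 members in TPM, on a log axis, in 231:TKO+siNT (red circles) and parental 231+siNT (dark grey squares), as the mean ± SD of 3 libraries, with members sorted within complexes and complexes separated by lines, and without EIF1AY, EIF4E1B, EEF1G, EIF4EBP3 and EIF2S3B. EEF1A1, EEF2, EIF5A, EIF6 and EEF1B2 are highest in both groups, and EIF4E and EIF2AK3 differ between the groups on this scale where their gene models have different lengths.

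Some members cannot be measured cleanly by these counts. EEF1G has only 7 of its 2639 exonic bases free of an overlapping gene model on the same strand, and it held at most 59 counts in a library. EIF4A1 shares 47.4% of its exonic bases with other models and lay at 6.67 to 39.6 CPM. EIF3C with EIF3CL, EIF5A with EIF5AL1, EIF2S3 with EIF2S3B, and EEF1A1 with its pseudogenes have near-identical copies between which reads can be split. EEF1A1 lay at 450 to 562 CPM in the untreated libraries and at 10335 to 12787 in the siRNA-treated ones, and EIF3CL at under 0.1 and at 1.95 to 5.03 CPM. Whether read type, transfection or another difference between these sets gave this was not tested. EIF1AY and EIF4E1B had too few counts to be tested in any comparison, and EEF1G, EIF3CL and EIF4EBP3 too few in the untreated one.

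After Myc knockdown in 231:TKO, translation factor mRNAs of most complexes were lower. Of the 62 members tested, 40 had lower and 3 had higher levels with siMyc than with siNT at an adjusted p of at most 0.05 (edgeR's quasi-likelihood test, Benjamini-Hochberg over all genes tested), against 13.9% of all 22450 genes tested that were lower and 13.3% that were higher. When genes with a mean under 1 CPM were left aside, 40 of 59 members were lower, against 22.2% of genes, and 3 were higher, against 20.9%. The median log2 change was -0.23 over the members tested and 0.01 over all genes tested. In 1 fit of all 12 siRNA-treated libraries, whose common estimate of the spread includes the pair, 15 members were lower and none was called higher, with a median of -0.20. Members other than EEF1A1 made up 1.27% to 1.28% of all counts in 231:TKO+siNT and 1.06% to 1.07% in 231:TKO+siMyc, so that the groups did not overlap. In bulk RNA, less RNA per cell and fewer cells of one kind cannot be told apart.

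The largest fall was that of ABCE1 (ENSG00000164163, chr4:145098288-145129524), the ATPase that splits ribosomes into subunits after termination. ABCE1 lay at 187, 159 and 185 CPM in 231:TKO+siNT and at 83.3, 87.6 and 99.5 in 231:TKO+siMyc. All siMyc libraries lay well below all siNT libraries, and the log2 change was -0.97 ± 0.07 (SE, adjusted p = 1.3e-09, n = 3 per group). In its group, the subunit joining factor EIF5B fell by 0.37 on the log2 scale (SE 0.06, adjusted p = 3.1e-05). EIF6 had the smallest change of the group (-0.16 ± 0.06, adjusted p = 0.0481), with 300, 329 and 298 CPM in 231:TKO+siNT and 292, 289 and 248 in 231:TKO+siMyc, and it lost the call when any library but 231:TKO+siMyc replicate 1 was left out (adjusted p 0.0571 to 0.217).

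The helicase, the eIF5A factor and the eEF1A exchange factor followed. EIF4A1, the helicase subunit of eIF4F, lay at 39.6, 39.2 and 37.8 CPM in 231:TKO+siNT and at 25.4, 23.8 and 25.2 in 231:TKO+siMyc (log2 change -0.65 ± 0.06, adjusted p = 8.5e-08). EEF1B2, the catalytic subunit of the eEF1A exchange factor, lay at 292, 287 and 291 CPM and at 183, 187 and 191 (-0.63 ± 0.05, adjusted p = 2.6e-09). EIF5A, the hypusine-carrying factor, lay at 707, 707 and 690 CPM and at 477, 465 and 438 (-0.61 ± 0.05, adjusted p = 4.1e-09). In each of these genes the siMyc and siNT libraries were separated by a gap wider than the range of either group. The intronless EIF5A copy EIF5AL1 also fell (-0.54 ± 0.14), at 1.96 to 3.36 CPM, while EIF5A2, a separate EIF5A gene, had a change of 0.01 ± 0.08 (adjusted p = 0.958).

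eIF3, the largest initiation factor, showed a shift of nearly all subunits. Of its 14 genes, 11 fell and all 14 had a log2 change below 0, with a median of -0.27. EIF3J, the loosely bound subunit, lay at 65.8, 61.9 and 66.0 CPM in 231:TKO+siNT and at 37.1, 42.1 and 45.3 in 231:TKO+siMyc (-0.63 ± 0.07, adjusted p = 3.3e-07). EIF3B, a scaffold of the complex, lay at 356, 353 and 360 CPM and at 239, 241 and 232 (-0.58 ± 0.05, adjusted p = 5.2e-09). EIF3A, the largest subunit, lay at 566, 522 and 584 CPM and at 469, 478 and 492 (-0.21 ± 0.05, adjusted p = 0.00205), so that its groups were separate but closer. The other subunits that fell were EIF3E (-0.48), EIF3D (-0.35), EIF3G (-0.29), EIF3M (-0.28), EIF3K and EIF3L (each -0.27), EIF3I (-0.24) and EIF3H (-0.21). EIF3C, EIF3CL and EIF3F had adjusted p-values of 0.196, 0.0642 and 0.132.

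Of the 6 eIF2 subunits and tRNA carriers 5 fell, with a median log2 change of -0.25, and the eIF2alpha kinases did not pass the threshold. EIF2S1, the alpha subunit that the kinases phosphorylate, lay at 146, 135 and 145 CPM in 231:TKO+siNT and at 103, 112 and 120 in 231:TKO+siMyc (-0.34 ± 0.06, adjusted p = 9.9e-05). EIF2S2 and EIF2S3, the other two subunits, fell by 0.25 and 0.21 on the log2 scale, and the tRNA carriers EIF2A and EIF2D by 0.34 and 0.24. In eIF2B, 3 of 5 subunits fell, among them the catalytic subunit EIF2B5, from 106, 106 and 108 CPM to 92.0, 86.6 and 87.4 (-0.26 ± 0.05, adjusted p = 0.000385). EIF2AK3 (PERK, the kinase of the endoplasmic reticulum) lay at 38.4, 39.0 and 36.5 CPM in 231:TKO+siNT and at 41.7, 39.1 and 43.6 in 231:TKO+siMyc (0.13 ± 0.06, adjusted p = 0.13), and DESeq2 gave it an adjusted p of 0.144. The 4 kinases together had adjusted p-values of 0.119 to 0.743. The scanning factor EIF1AX fell by 0.44 (SE 0.06, adjusted p = 1.6e-05) and EIF1 by 0.18, while EIF1B and EIF5 had changes of -0.03 ± 0.06 and -0.08 ± 0.05.

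Most genes of eIF4F and its helicase partners fell, while some relatives and regulators of EIF4E rose. Of the 10 tested, 7 fell and 2 rose, and of the 4 eIF4E-binding proteins 1 fell and 1 rose. Besides EIF4A1 above and the genes below, EIF4G3 (-0.19), EIF4G2 (-0.13) and EIF4B (-0.13 ± 0.05, adjusted p = 0.0433) fell. EIF4H had a change of -0.02 ± 0.04. EIF4E lay at 84.3, 75.1 and 85.5 CPM in 231:TKO+siNT and at 60.4, 62.4 and 72.4 in 231:TKO+siMyc (-0.32 ± 0.07, adjusted p = 0.000919), and EIF4G1, its scaffold, at 1057, 1042 and 1069 and at 893, 876 and 853 (-0.27 ± 0.04, adjusted p = 6.2e-05). EIF4A2, the second eIF4A helicase, lay at 332, 309 and 318 CPM and at 269, 273 and 305 (-0.18 ± 0.05, adjusted p = 0.0156), a call that was lost in 4 of the 6 fits that left out 1 library. The 3 members that rose were all relatives or partners of EIF4E. EIF4E2, which binds caps without EIF4G1 and represses translation, lay at 75.9, 72.7 and 72.4 CPM in 231:TKO+siNT and at 85.2, 83.1 and 85.2 in 231:TKO+siMyc (0.20 ± 0.05, adjusted p = 0.00538). EIF4E3, another cap-binding relative, lay at 11.4, 11.5 and 12.9 CPM and at 14.2, 13.1 and 15.2 (0.25 ± 0.08, adjusted p = 0.029), and this call too was lost in 4 of 6 such fits. EIF4EBP2, an inhibitor of EIF4E, lay at 231, 214 and 228 CPM and at 251, 251 and 263 (0.19 ± 0.05, adjusted p = 0.00507), whereas EIF4EBP1, the better known inhibitor, fell from 67.6, 81.6 and 72.8 CPM to 58.9, 58.3 and 57.5 (-0.34 ± 0.06, adjusted p = 0.000235).

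Of the 7 eEF1 and eEF2 genes, EEF2 and its kinase and 3 of the 5 eEF1 genes (EEF1B2, EEF1D and EEF1A1) fell, while EEF1A2 and EEF1G did not pass the test. EEF2, the translocase, lay at 1345, 1442 and 1352 CPM in 231:TKO+siNT and at 1098, 1069 and 965 in 231:TKO+siMyc (-0.40 ± 0.05, adjusted p = 3.7e-06). EEF2K, the kinase that inactivates eEF2, lay at 32.8, 32.5 and 33.6 CPM and at 28.6, 27.2 and 27.1 (-0.25 ± 0.06, adjusted p = 0.00331), so that both the factor and its inhibitor fell. EEF1A1 lay at 11593, 11764 and 11663 CPM and at 10649, 10623 and 10335, a difference of -0.15 ± 0.04 (adjusted p = 0.0116) that missed the threshold without 231:TKO+siNT replicate 3 (0.057). EEF1A2, the paralog known from muscle and neurons, lay at 43.4, 49.0 and 45.1 CPM and at 49.2, 48.0 and 43.8, with overlapping groups (0.04 ± 0.06, adjusted p = 0.727). Of 9 members known to have TOP mRNAs, 7 fell (EEF1B2, EIF3E, EEF2, EEF1D, EIF3H, EEF1A1 and EIF4B), with a median log2 change of -0.21. Of all 62 members tested 64.5% fell, with a median of -0.23, so the TOP members did not stand out by their median.

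**Figure D2:**
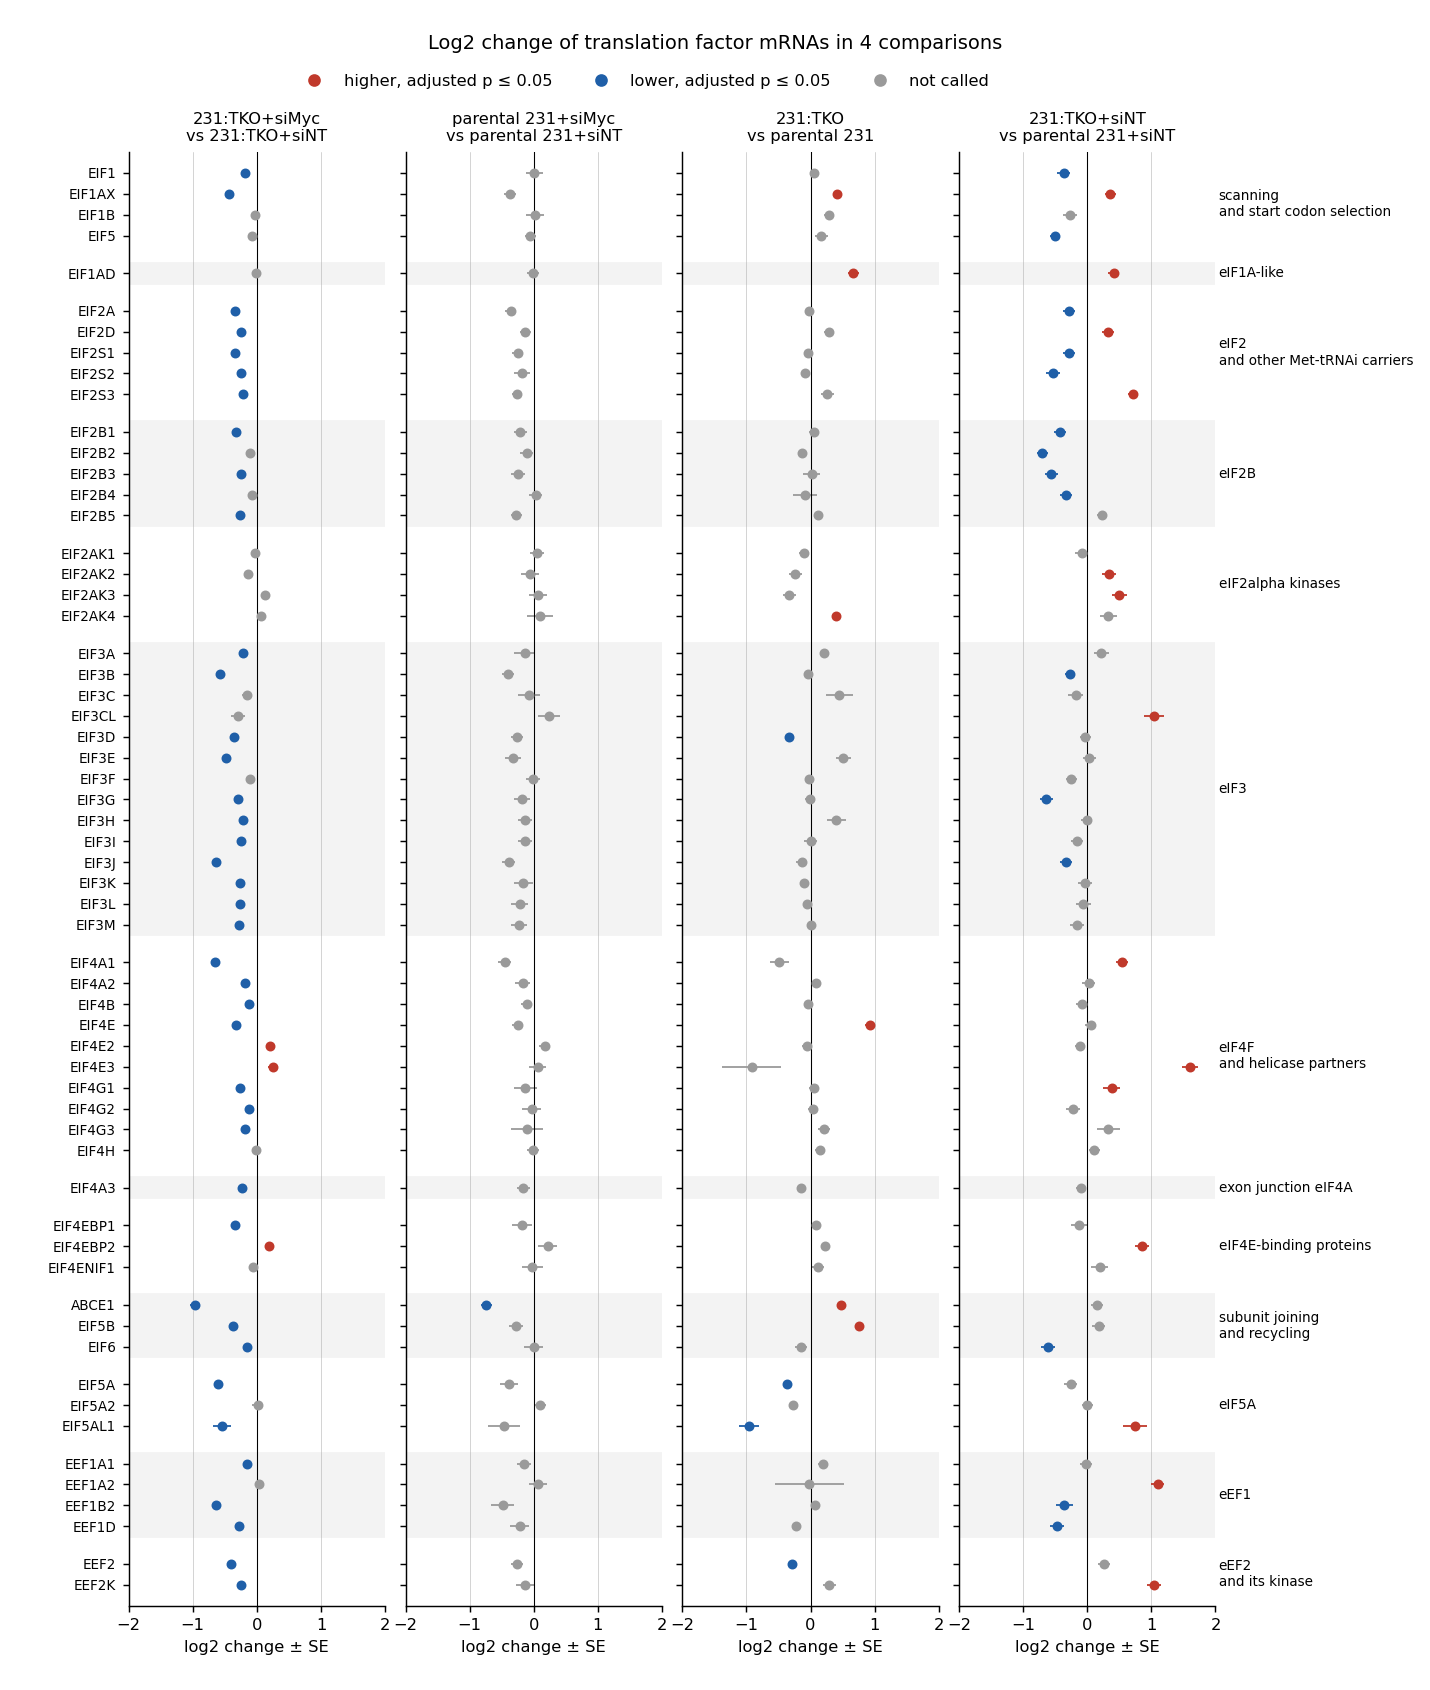
Log2 change ± SE of 59 members in 4 comparisons (columns), grouped by complex, with members higher (red) or lower (blue) at an adjusted p of at most 0.05 and the others in grey. EIF1AY, EIF4E1B, EEF1G, EIF4EBP3 and EIF2S3B are not drawn. In the first column 40 of the members drawn are blue and lie left of 0, in the second column ABCE1 alone is past the threshold, and the right columns scatter to both sides.

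**Figure D3:**
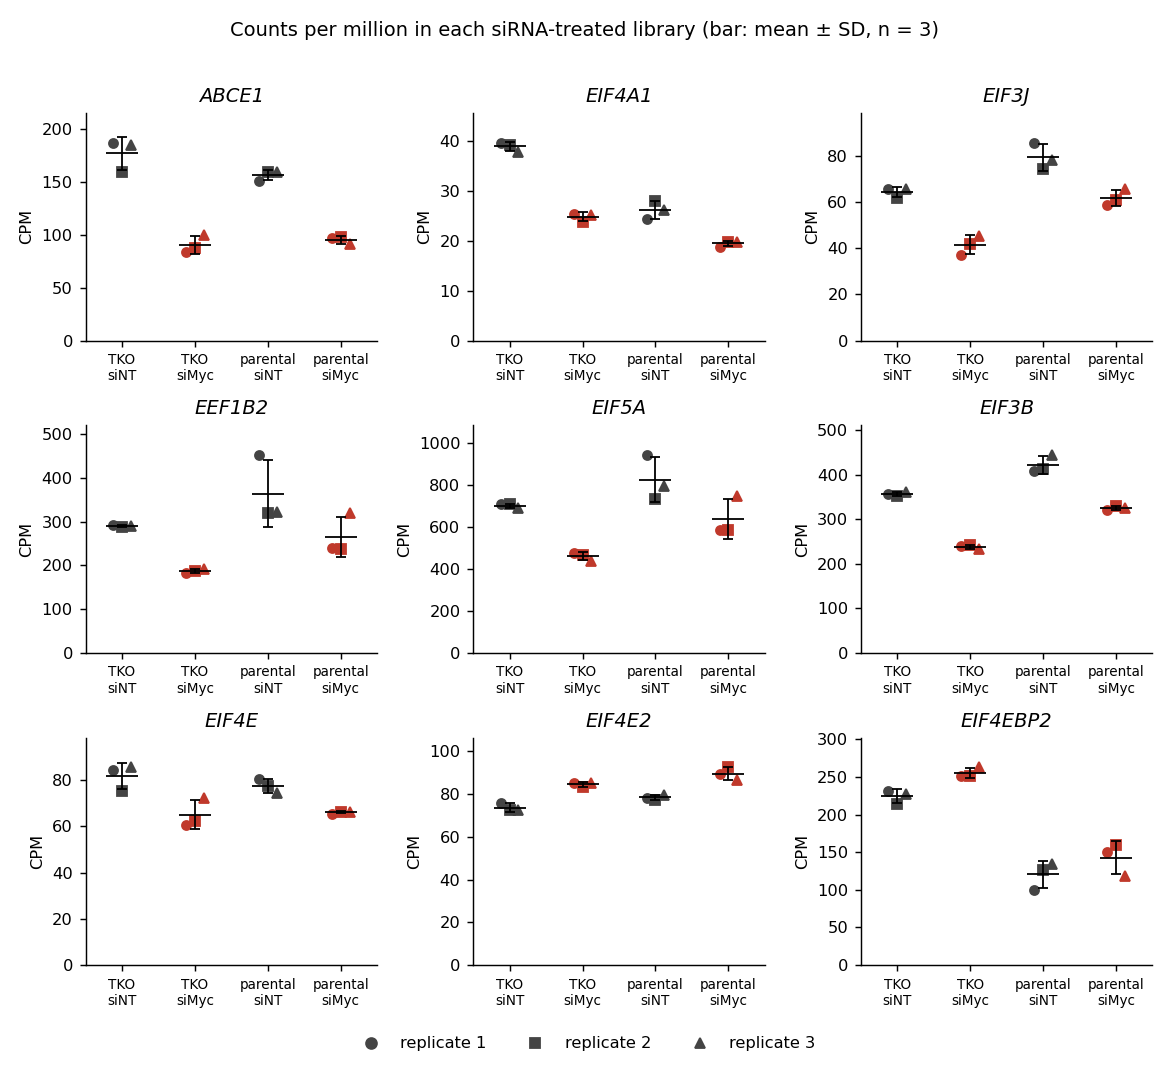
CPM of 9 members in each of the 12 siRNA-treated libraries, siNT in dark grey and siMyc in red, with replicates 1, 2 and 3 as circles, squares and triangles and bars for the mean ± SD (n = 3). ABCE1, EIF4A1, EIF3J, EIF3B and EIF4E are lower and EIF4E2 is higher in every siMyc library of either population, and EEF1B2 and EIF5A of the pair lie above the other parental libraries of their groups.

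In parental 231 the same comparison had a larger spread. At the same threshold 1 of the 62 members tested was lower in parental 231+siMyc than in parental 231+siNT and none was higher, against 0.354% and 0.24% of all 23728 genes tested. At an unadjusted p under 0.05 there were 17 of the 62 members, against 3462 of the 23728 genes. DESeq2 called 6 members lower (ABCE1, EIF3B, EIF4A1, EIF3J, EIF2A and EIF1AX) and none higher. The median log2 change of the members was -0.15, and 49 of 62 had a change below 0. ABCE1 lay at 151, 159 and 159 CPM in parental 231+siNT and at 97.1, 98.2 and 91.1 in parental 231+siMyc (-0.74 ± 0.09, adjusted p = 0.0378), with all siMyc libraries far below all siNT libraries. Leaving out either siNT replicate 2 or 3, or either siMyc replicate 1 or 2, took this call past the threshold (adjusted p 0.187 to 0.291).

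The pair of libraries bore on these counts. With a factor for the pair added to the fit after seeing the data, 35 members were lower and 2 (EIF4EBP2 and EIF4E2) higher, against 13.1% and 13.7% of all genes, with a median of -0.14. At 1 CPM or more, 34 of 59 members were lower and 2 higher, against 21.8% and 22.9% of genes. Without the pair altogether, 28 were lower and 2 higher. The changes themselves stayed close to those of the fit without a factor. EIF3B lay at 409, 412 and 444 CPM in parental 231+siNT and at 321, 329 and 325 in parental 231+siMyc, with a change of -0.40 ± 0.09 without and -0.40 ± 0.04 with the factor (adjusted p = 1.5e-10). EIF5A lay at 943, 735 and 797 CPM and at 583, 586 and 747, and the value of siMyc replicate 3 was above that of siNT replicate 2, so that the groups overlapped. Its change was -0.39 ± 0.14 without and -0.40 ± 0.04 with the factor. EIF4A1 (24.4, 27.9 and 26.1 CPM against 18.8, 19.8 and 19.7) and EIF4E (80.5, 77.3 and 74.5 against 65.5, 66.3 and 66.2) had separate groups, with changes of -0.45 ± 0.06 and -0.25 ± 0.04 in the fit with the factor.

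The values of other members in parental 231 overlapped between groups in some genes and not in others. EEF2 lay at 1034, 1117 and 1241 CPM in siNT and at 996, 980 and 900 in siMyc libraries, and EEF1A1 at 12787, 11402 and 10678 and at 10342, 10373 and 11137. EIF2S1 lay at 180, 166 and 165 CPM against 137, 146 and 152, EIF2B5 at 86.5, 93.3 and 88.0 against 75.0, 77.0 and 74.4, and both had groups that did not overlap. EIF4G1 lay at 619, 816 and 951 CPM against 806, 814 and 602, EIF3A at 376, 503 and 527 against 474, 475 and 348, and EIF4EBP2 at 100 (siNT replicate 1), 127 and 135 against 150, 160 and 118. In all 3 of these genes the lowest library of each group was the one in the pair.

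The difference between the responses to siMyc in 231:TKO and parental 231 was then tested itself, in 1 fit of the 12 siRNA-treated libraries. No member had a difference at an adjusted p of at most 0.05 in either direction by edgeR, where 0% of the 25812 genes tested were called in either direction. At an unadjusted p under 0.05 there was 1 member (EIF3CL), against 1039 of the 25812 genes, and DESeq2 called no member. With the factor for the pair, no member was called, against 0.395% of all genes called higher and 0.174% lower in 231:TKO. In that fit 7 of 62 members had an unadjusted p under 0.05, as did 2374 of all 25812 genes tested. Among genes at 1 CPM or more these were 7 of 59 members and 1744 of 13530 genes. The median difference, 231:TKO minus parental 231, was -0.05 over the members, and -0.11 without the pair. Over all genes tested these medians were 0.03 and -0.03. In the fit without the factor 44 of 62 members lay below 0, as did 11490 of 25812 genes. For ABCE1 the difference was -0.20 ± 0.13, for EIF3J -0.22 ± 0.13, for EIF3B -0.16 ± 0.10 and for EIF5A -0.19 ± 0.15, each with an adjusted p of 1. A difference of this size cannot be told from none with these libraries.

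The changes of single members resembled each other across the populations, which share no libraries in these comparisons. Over the 59 members with a mean of 1 CPM or more, Pearson's r between the log2 changes was 0.91 and Spearman's rho 0.89, and 54 of 59 had the same sign. This is across genes, which are not independent replicates, and the same siRNA was used in both populations. ABCE1 had the largest fall in each. EIF4A1, EIF3J, EEF1B2, EIF5A and EIF3B followed in 231:TKO, and their changes in parental 231 in the fit with the factor for the pair were -0.45, -0.39, -0.47, -0.40 and -0.40. EIF4EBP2 and EIF4E2, which rose in 231:TKO, had changes of 0.22 and 0.17 in the same fit.

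**Figure D4:**
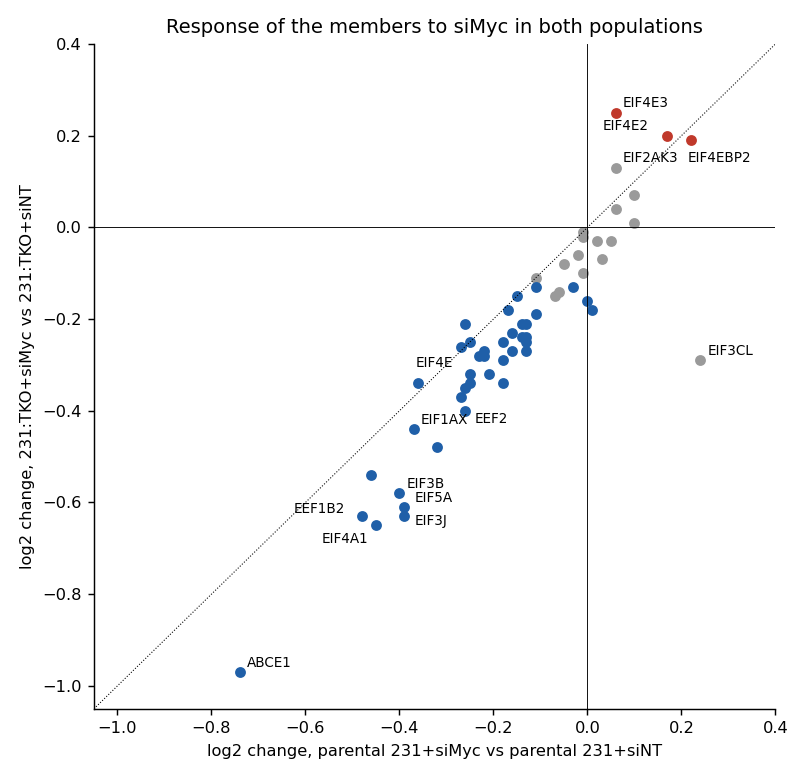
Log2 change after siMyc in parental 231 (horizontal axis) against that in 231:TKO (vertical axis) for the 59 members with a mean of 1 CPM or more, with a dotted line of equality. Members called in 231:TKO are coloured by direction, and 54 of 59 points have the same sign on both axes, with ABCE1 farthest from 0 at -0.74 and -0.97.

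Without siRNA, knockout of TXNIP went with changes of both signs and no common direction. Of 59 members tested, 6 were higher and 4 lower in 231:TKO than in parental 231, against 5.43% and 4.18% of all 19965 genes tested, with a median log2 difference of 0.02. At 1 CPM or more, 10.3% of members were higher and 6.9% lower, against 8.35% and 5.4% of genes, so the members were not far from all such genes. The members that were higher came from several complexes. EIF4E (ENSG00000151247, chr4:98871684-98930637), the cap-binding protein, lay at 23.0 and 22.8 CPM in parental 231 and at 46.3 and 45.9 in 231:TKO (log2 difference 0.93 ± 0.08, adjusted p = 0.00726, n = 2 per group). EIF5B (ENSG00000158417, chr2:99337371-99401326), the GTPase of subunit joining, lay at 216 and 205 CPM and at 366 and 380 (0.75 ± 0.06, adjusted p = 0.00787). In both genes the libraries of each group lay close together and far from those of the other group. EIF1AD, an eIF1A-like protein, lay at 45.0 and 42.0 CPM in parental 231 and at 70.6 and 75.3 in 231:TKO (0.67 ± 0.08, adjusted p = 0.0138).

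ABCE1 lay at 231 and 229 CPM in parental 231 and at 336 and 336 in 231:TKO (0.47 ± 0.06, adjusted p = 0.0138). EIF1AX lay at 92.4 and 89.6 CPM and at 129 and 127 (0.42 ± 0.06, adjusted p = 0.0184). EIF2AK4 (GCN2, the kinase that senses uncharged tRNA) lay at 129 and 126 CPM and at 172 and 181 (0.40 ± 0.06, adjusted p = 0.0236). The members that were lower included factors of elongation. EEF2 lay at 1644 and 1635 CPM in parental 231 and at 1430 and 1389 in 231:TKO (-0.29 ± 0.06, adjusted p = 0.0427), and EIF5A at 501 and 473 and at 406 and 393 (-0.36 ± 0.06, adjusted p = 0.0312). EIF3D, the eIF3 subunit known to bind caps, lay at 278 and 272 CPM and at 226 and 234 (-0.33 ± 0.06, adjusted p = 0.0339). EIF5AL1, which shares reads with EIF5A, was lower as well (-0.96 ± 0.16, adjusted p = 0.0283).

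Other members had differences as large without passing the test. EIF3E (0.51 ± 0.12, adjusted p = 0.0605) was called by DESeq2 and not by edgeR, and EIF4A1 lay at 8.55 and 9.54 CPM in parental 231 and at 6.67 and 6.87 in 231:TKO (-0.49 ± 0.15, adjusted p = 0.11). The unlike 231:TKO replicates widened some of these errors. EEF1A2 lay at 30.2 and 30.3 CPM in parental 231 but at 15.2 and 47.5 in 231:TKO, on either side of the parental libraries, and EIF4E3 lay at 3.97 and 4.28 CPM and at 3.28 and 1.30. Without 231:TKO replicate 1 the fit called 21 members higher and 16 lower, without replicate 2 it called 17 and 14, and without either parental 231 replicate none of the calls was kept. These fits have 1 library in an arm, which is assumed to vary like the other group.

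Several of these members lie in stretches of chromosomes whose genes moved together. Windows of 20 Mb were used, and the other genes of a member's window are called its neighbours. ABCE1 lies in the window from 140 to 160 Mb of chromosome 4, where 47 neighbours had a median log2 difference of 0.52 between 231:TKO and parental 231, close to the 0.47 of ABCE1. EIF4E lies between 80 and 100 Mb of the same chromosome, where 43 neighbours had a median of 0.47 and EIF4E itself 0.93. EIF5A and EIF4A1 lie in the first 20 Mb of chromosome 17, where 191 neighbours had a median of -0.37, against -0.36 and -0.49 for these members. EIF3E and EIF3H lie between 100 and 120 Mb of chromosome 8, where the shift of 35 neighbours was 0.59 in 231:TKO replicate 1 and 0.17 in replicate 2, and EIF3H lay at 309 and 227 CPM in these replicates. Neighbours of EIF5B (65 genes) and EIF1AD (251 genes) had medians of 0.14 each, well under the 0.75 and 0.67 of these members. Over the 58 members with values, r between a member's difference and the median of its neighbours was 0.57 and rho 0.52, a description across genes. Between 231:TKO+siNT and parental 231+siNT the neighbours of ABCE1, EIF4E, EIF5A and EIF3E had medians of 0.03, -0.16, -0.06 and -0.08. The shifts of these windows in the untreated cells were thus not seen after siNT. This did not hold for every window. The neighbours of EEF1D, between 140 and 160 Mb of chromosome 8, had medians of -0.39 untreated and -0.29 after siNT, and EEF1D itself had -0.22 and -0.47. DNA copy number was not measured here, and its part in these differences was not tested.

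A fit that took the shift of each window in each library as an offset called 5 members higher and 3 lower, with a median of 0.04. EIF4E (0.46, adjusted p = 0.023), EIF5B (0.54, adjusted p = 0.00721), EIF1AD (0.55, adjusted p = 0.0114), EIF1AX (0.34, adjusted p = 0.0289) and EIF2AK4 (0.34, adjusted p = 0.0228) were higher relative to their neighbours. ABCE1 had a value of -0.03 (adjusted p = 0.787) and EIF5A of -0.00 (adjusted p = 0.985) in that fit. EIF3D (-0.25, adjusted p = 0.0625) and EEF2 (-0.21, adjusted p = 0.0806) also lost the call, whereas EIF2AK3 (-0.54, adjusted p = 0.0212) and EIF5A2 (-0.36, adjusted p = 0.0371) gained it.

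**Figure D5:**
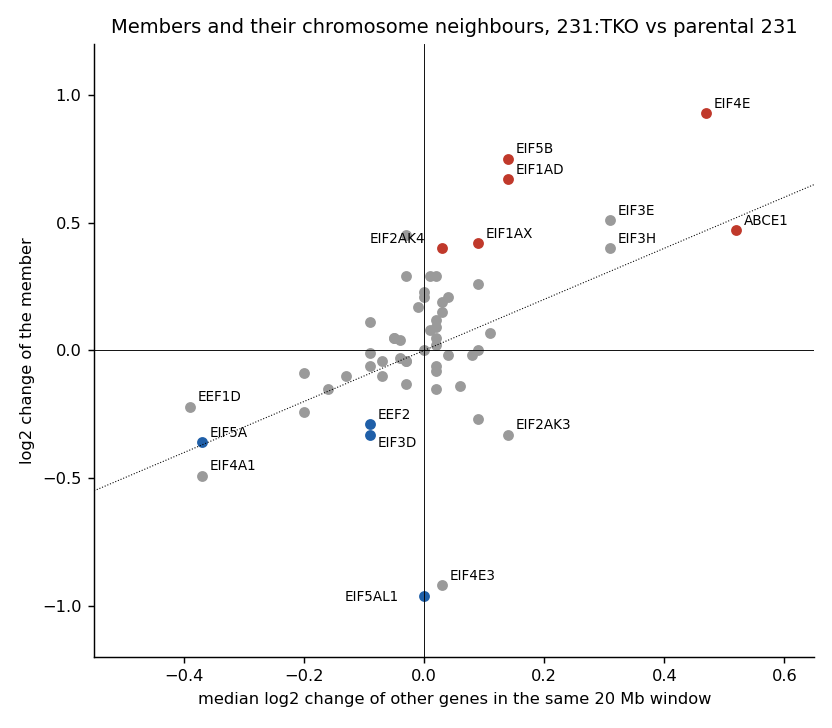
Log2 difference of each member (vertical axis) against the median log2 difference of the other genes within its 20 Mb window (horizontal axis), for untreated 231:TKO against parental 231, with members higher (red) or lower (blue) at an adjusted p of at most 0.05, the others in grey, and a dotted line of equality. ABCE1 and EIF5A lie near the line and EIF4E, EIF5B and EIF1AD above it.

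After siNT, 231:TKO and parental 231 differed in more members, again in both directions. Of 62 members tested, 14 were higher and 16 lower in 231:TKO+siNT than in parental 231+siNT, against 16.1% and 20.7% of all 23310 genes tested, so that the shares of 22.6% and 25.8% of the members were not far from those of all genes. The median log2 difference was -0.02 over the members and -0.03 over all genes. Without 231:TKO+siNT replicate 1 or 3, 9 members were lower. The same siNT libraries serve as controls of the siMyc comparisons above. The exchange factor eIF2B had 4 of its 5 subunits lower, and the exchange subunits of eEF1, EEF1D (-0.47) and EEF1B2 (-0.36), were lower too. EEF1D lay at 335, 357 and 327 CPM in 231:TKO+siNT and at 547, 422 and 418 in parental 231+siNT. EEF1B2 lay at 292, 287 and 291 CPM and at 453, 319 and 322. The high parental value of both genes belongs to replicate 1, the library of the pair, and the other parental libraries lay closer to 231:TKO+siNT. EIF2B2, a regulatory subunit of eIF2B, lay at 50.9, 52.3 and 51.2 CPM in 231:TKO+siNT and at 88.3, 78.2 and 79.9 in parental 231+siNT (-0.70 ± 0.09, adjusted p = 0.0001). EIF2B3 lay at 37.4, 34.2 and 36.5 CPM and at 57.6, 49.0 and 49.2 (-0.56 ± 0.10, adjusted p = 0.00104), while the catalytic subunit EIF2B5, at 106, 106 and 108 against 86.5, 93.3 and 88.0, was the subunit without a call. In each of the called subunits the groups were separate.

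Of the eIF2 subunits, EIF2S2 was lower (240, 239 and 238 CPM against 395, 305 and 314, -0.53 ± 0.11, adjusted p = 0.00252), EIF2S1 was lower by a smaller amount (-0.29 ± 0.09), and EIF2S3 was higher (212, 212 and 222 CPM against 129, 131 and 128, 0.71 ± 0.08, adjusted p = 4.9e-05). The complex thus had subunits on both sides. EIF3G, a subunit of eIF3 that takes part in scanning, lay at 140, 143 and 141 CPM in 231:TKO+siNT and at 244, 198 and 204 in parental 231+siNT (-0.64 ± 0.10, adjusted p = 0.000419). EIF6 lay at 300, 329 and 298 CPM and at 541, 421 and 423 (-0.61 ± 0.11, adjusted p = 0.00134). The high value of each gene in parental 231+siNT belongs to replicate 1, the library of the pair, and without it the differences were -0.52 and -0.46 and remained called. EIF5, the GTPase activator of eIF2, was lower by 0.51 ± 0.08 (adjusted p = 0.000542), a difference that was the same without that library.

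Among the members most raised in 231:TKO were the cap-binding relative EIF4E3, the eEF1A paralog EEF1A2 and the eEF2 kinase. EIF4E3 (ENSG00000163412, chr3:71675414-71754773) lay at 11.4, 11.5 and 12.9 CPM in 231:TKO+siNT and at 4.02, 3.60 and 3.97 in parental 231+siNT (1.60 ± 0.12, adjusted p = 1.6e-06). EEF1A2 (ENSG00000101210, chr20:63488013-63499239) lay at 43.4, 49.0 and 45.1 CPM and at 22.2, 19 and 21.6 (1.10 ± 0.10, adjusted p = 8.6e-06). EEF2K lay at 32.8, 32.5 and 33.6 CPM and at 13.2, 16.8 and 17.0 (1.04 ± 0.11, adjusted p = 3.5e-05). All 3 had groups far apart, and their neighbours within 20 Mb had medians of -0.04, -0.11 and -0.10. For the lower members named above, the medians were -0.38 (EIF5), -0.35 (EIF3G), -0.29 (EEF1D), -0.26 (EIF2B2 and EIF2S1) and -0.17 (EIF2S2 and EIF6). Those of EEF1B2 and EIF2B3 were 0.05 and 0.09. EIF4EBP2 lay at 231, 214 and 228 CPM and at 100, 127 and 135 (0.86 ± 0.11, adjusted p = 0.000141). Of the eIF2alpha kinases, EIF2AK3 (0.50 ± 0.12) and EIF2AK2 (PKR, the kinase that senses double-stranded RNA, 0.34) were higher, but the exon models of both differ between the annotations used for the 2 populations, as does that of EIF5AL1. EIF4A1 (0.54 ± 0.09) and EIF3CL (1.04 ± 0.15) were higher and EEF1G was lower (-1.90 ± 0.45), all with shared reads. With window offsets 15 members were higher and 11 lower, against 14 and 16 without them. EIF3B, lower by 0.27 in the fit without offsets, had a value of 0.09 (adjusted p = 0.431) with them.

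The untreated and the siNT-treated cells gave unlike differences between 231:TKO and parental 231. Over 58 members with a mean of 1 CPM or more, r between these log2 differences was -0.10 and rho 0.19, and 39 of 58 had the same sign. EIF1AD (0.67 and 0.41) and EIF1AX (0.42 and 0.36) were higher in both. A test of the difference between both comparisons, added after seeing the data and fitted over 10 libraries, called 8 members with a higher and 9 with a lower value in the untreated than in the siNT-treated cells, against 7.91% and 6.2% of all 25112 genes tested. At 1 CPM or more it called 13.6% of members higher and 15.3% lower, against 13.9% and 10.3% of genes. Without parental 231+siNT replicate 1 it called 20 and 10, without either untreated parental 231 replicate 2 and 4 to 5, and without any 1 of the 231:TKO+siNT libraries 4 to 5 and 6 to 7. EIF4E was among them, with a log2 difference of 0.93 without and of 0.05 ± 0.09 with siNT. Read type, transfection, time and, for the parental libraries, the gene annotation also differ between these sets, and they cannot be told apart.

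Genes that act on or beside the factors were read from lists of other translation genes, to show whether siMyc touched more than the factors themselves. The shares of all genes against which these counts stand are those given for the members, 13.9% lower and 13.3% higher, or 22.2% and 20.9% at 1 CPM or more. After siMyc in 231:TKO, 4 of 7 termination factors fell, with a median of -0.20, among them ETF1 (eRF1, -0.39 ± 0.05, adjusted p = 5.4e-06) and its GTPase partner GSPT1 (-0.34 ± 0.05). Of 9 enzymes that make hypusine on eIF5A or diphthamide on eEF2, 5 fell (median -0.28), with DPH2 at -0.60 ± 0.07 (adjusted p = 7.3e-07) and the hypusine hydroxylase DOHH at -0.29 ± 0.07 (adjusted p = 0.00339). Of 5 eEF1A methyltransferases, 4 fell (median -0.31), and of 10 mitochondrial translation factors 6 fell (median -0.30), among them the mitochondrial elongation factor TUFM (-0.36 ± 0.06). Of 5 genes of the eIF2alpha phosphatase and stress response, 3 fell: PPP1R15A (-0.29), PPP1R15B (-0.28) and the transcription factor ATF4 (-0.22). The list medians lay below the 0.01 of all genes tested.

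The remaining lists had genes on both sides, in shares near those of all genes at 1 CPM or more. Of 9 cap and poly(A) partners, 3 fell and 2 rose, with the poly(A)-binding proteins PABPC4 (-0.57 ± 0.05, adjusted p = 1.2e-08) and PABPC1 (-0.34 ± 0.05) lower, and PDCD4 (0.54 ± 0.07), which inhibits the eIF4A helicase, and PAIP2 (0.21 ± 0.06), which inhibits PABPC1, higher. Of 10 genes that pass mTORC1 and MAPK signals to translation, 2 fell and 3 rose, with the eIF4E kinase MKNK2 at -0.74 ± 0.06 (adjusted p = 7.2e-09) and both subunits of the mTORC1 inhibitor, TSC1 (0.25) and TSC2 (0.20), among those that rose. In parental 231 the same lists had 1 gene past the threshold, MKNK2 (-0.74 ± 0.09, adjusted p = 0.0378). With the factor for the pair, 6 of 9 hypusine and diphthamide enzymes, 6 of 10 mitochondrial factors, 3 of 7 termination factors, 3 of 5 eEF1A methyltransferases, 3 of 9 cap and poly(A) partners, 3 of 10 mTORC1 and MAPK genes and 2 of 5 stress genes were lower, against 13.1% of all genes. Higher in that fit were 3 mTORC1 and MAPK genes and 1 gene each of the hypusine, mitochondrial, cap and stress lists, against 13.7%. Among genes at 1 CPM or more, 21.8% were lower and 22.9% higher in that fit.

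Between 231:TKO+siNT and parental 231+siNT the lists again had both signs. LARP1, which binds TOP mRNAs, was higher by 1.26 ± 0.16 (adjusted p = 0.000203), and the helicase DDX3X by 0.76 ± 0.12 (adjusted p = 0.000425). PPP1R15B, a subunit of the eIF2alpha phosphatase, was higher (1.09 ± 0.09, adjusted p = 6.5e-06), while TRIB3, a stress-induced pseudokinase, was lower (-1.16 ± 0.15, adjusted p = 0.000153). DHPS, the enzyme that begins hypusine synthesis on eIF5A, was lower by 0.94 ± 0.10 (adjusted p = 2.6e-05). EIF5A itself had a difference of -0.26 ± 0.10 (adjusted p = 0.0639). In the untreated cells 5 genes of the lists outside the members passed the threshold, where 5.43% of all genes tested were higher and 4.18% lower. DPH1 (-0.55 ± 0.10) and MKNK1 (-0.37 ± 0.07) were lower, and GUF1 (0.41 ± 0.07), RHEB (0.30 ± 0.06) and GFM1 (0.29 ± 0.06) higher. With window offsets no gene of the diphthamide list (DPH1) or the mitochondrial list (GUF1 and GFM1) was called. The mTORC1 and MAPK list then had 1 gene higher and 1 lower, and the cap list 1 lower.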

How the data were processed

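mRNA was captured from the total RNA behind each of the 16 libraries and sequenced from stranded libraries. The authors aligned reads to GRCh38 with STAR and deposited raw counts per gene from featureCounts version 1.6.3 (reverse strand), of single reads for the untreated libraries and of read pairs for the siRNA-treated ones, with Ensembl release 104 for the siRNA-treated parental 231 libraries and release 102 for all others. The STAR version is not given in the sources used here. From these counts, genes with more than 5 counts summed over a comparison's libraries entered edgeR 4.0.16 under R 4.3.3 (TMM scaling, robust quasi-likelihood test, 1 fit per comparison of the groups compared), after tests on simulated data, with Benjamini-Hochberg adjustment over all genes tested and a threshold of 0.05. The 2 responses to siMyc were compared by the interaction term of 1 fit of 12 libraries. CPM values used 1 TMM scaling of all 16 libraries, and TPM used the exonic length of each gene model. Totals were 18953668 to 59799444 counts. Over all genes, the chi-square per degree of freedom between 2 replicates ran from 2.02 (parental 231) to 99.2 (parental 231+siNT replicates 1 and 3). Counting error was thus a large part of the spread in some groups and a small part in others, and it limits members under 1 CPM.

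Values per library are given for the up to 5 members that rose most and the up to 5 that fell most in each comparison, and for 18 key members. The examples of each list are among its 4 largest changes past the threshold. Members, key members and lists were chosen with earlier results of these data known. The factor for the pair, the fits without it and the test between the knockout comparisons were added after seeing the data. Alternatives were DESeq2 1.42.0, DESeq2 size factors, other filters, a threshold of 0.01, a joint fit, window offsets, genes of equal length in both releases, a replicate block and leaving out each library. Window offsets took, per library, the shift of the other genes within 20 Mb, with at least 15 genes. Members were matched to RefSeq promoters by symbol, and 11 had no entry.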

Additional observations from a re-analysis of the deposited data

Results flagged for a closer look

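In 17 members the log2 difference between 231:TKO and parental 231 was not the same in untreated and in siNT-treated cells, by edgeR's quasi-likelihood test of the difference between both comparisons over 10 libraries (untreated minus siNT-treated, added after seeing the data). Of all 25112 genes tested, 7.91% were called higher and 6.2% lower. At 1 CPM or more these shares were 13.9% and 10.3% of genes and 13.6% and 15.3% of members, so the members were not far from all such genes. The value was lower in the untreated cells for 9 members: EIF4E3 (-2.52, adjusted p = 0.000383), EIF5AL1 (-1.69, adjusted p = 0.000596), EIF4A1 (-1.03, adjusted p = 0.000552), EIF2AK3 (-0.82, adjusted p = 0.00537), EEF2K (-0.75, adjusted p = 0.00887), EIF4EBP2 (-0.63, adjusted p = 0.0176), EIF2AK2 (-0.59, adjusted p = 0.0282), EEF2 (-0.55, adjusted p = 0.0172) and EIF2S3 (-0.45, adjusted p = 0.045). It was higher in the untreated cells for 8 members: EIF4E (0.89, adjusted p = 0.000672), EIF5 (0.68, adjusted p = 0.00452), EIF3G (0.63, adjusted p = 0.0122), EIF2B3 (0.58, adjusted p = 0.0379), EIF2B2 (0.57, adjusted p = 0.0118), EIF5B (0.57, adjusted p = 0.02), EIF1B (0.56, adjusted p = 0.0447) and EIF2B1 (0.48, adjusted p = 0.033). EIF4E3 rests on 1.30 to 12.9 CPM, EIF5AL1 and EIF4A1 share reads with other genes, and EIF2AK3, EIF2AK2, EIF4E and EIF5AL1 have exon models of unlike length in the annotations used. Groups of 2 or 3 libraries were too small for a search for single outlying libraries.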

How the results depend on the processing

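The direction and the side of the threshold of single members were the same in 1770 of 1948 combinations of a member and an alternative. A call was lost in 107, gained in 68 and turned in 3, which were ABCE1 untreated with window offsets (-0.03), EIF3B after siNT with window offsets (0.09) and the uncalled EEF1A2 untreated without 231:TKO replicate 1 (0.57, and -1.07 without replicate 2, each past the threshold). The cause of these changes was not tested. In untreated cells the members' median was 0.03 without a filter, 0.01 with a replicate block and 0.04 with window offsets, 1 member was lower with the block, and at a threshold of 0.01 there were 2 higher and 0 lower. For siMyc in 231:TKO, 1 fit of 12 libraries gave 0 higher, 15 lower and a median of -0.20. For siMyc in parental 231, the number lower was 6 with DESeq2, 0 with a replicate block, 12 in 1 fit of 12 libraries, 35 with the pair factor and 28 without the pair (2 higher in each of these last fits), and 0 at a threshold of 0.01. After siNT the median was 0.06 with window offsets and -0.06 over genes of equal length in both releases, and 9 were lower at 0.01. The median difference between the responses to siMyc was -0.09 with DESeq2 or its size factors and -0.11 without the pair. That between the knockout comparisons was 0.04 with either of these and 0.17 over genes of equal length, with 2 higher and 5 lower at 0.01.

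Leaving out each library in turn gave 0 to 21 members higher, 0 to 16 lower and medians of 0.00 to 0.04 for the untreated knockout (21 and 16 without 231:TKO replicate 1, 17 and 14 without replicate 2, 0 without either parental replicate), 2 to 3, 35 to 42 and -0.24 to -0.23 for siMyc in 231:TKO, 0 to 0, 0 to 1 and -0.20 to -0.14 in parental 231, 11 to 20, 9 to 20 and -0.03 to 0.05 for the knockout after siNT (9 lower without 231:TKO+siNT replicate 1 or 3), 0 to 0, 0 to 0 and -0.12 to -0.03 for the difference between the responses, and 2 to 20, 4 to 10 and 0.05 to 0.14 for that between the knockout comparisons. Libraries with the same replicate number did not deviate together (correlations of deviations 0.03 and 0.03 untreated, -0.24 to 0.41 for siMyc in 231:TKO, -0.89 to 0.75 in parental 231 and -0.20 to 0.17 after siNT), so the numbers were not taken as pairing the samples. With the replicate block 41 members were lower and 3 higher after siMyc in 231:TKO, and 15 were higher and 15 lower after siNT. Low counts limit what can be said of EIF4E1B and EIF1AY, which were not tested, and of EEF1G, EIF4EBP3 and EIF2S3B, whose mean lay under 1 CPM in every group.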
